A study of Mus musculus with 4 samples.

Results

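The 8 genes Cpt1a, Slc25a20, Acadvl, Acadl, Acadm, Ehhadh, Pdk4 and Angptl4 were taken by name as genes of fatty acid oxidation that the peroxisome proliferator-activated receptors (PPARs) control, and were followed beside Ppara, the gene of PPARα. They are 8 of 30284 genes with summed estimated counts, and all 8 were among the 13602 genes with enough counts to be tested. None of the 8 encodes a ketogenic enzyme, so the ketone body genes are given below from a separate list. RNA was sequenced from small-intestinal organoids of 2 male C57BL/6J mice, labelled with an age of 9 weeks. Crypts of each mouse were grown in Matrigel and received either DMSO, the vehicle, or GW3965 at 2 µM for 6 h. GW3965 is a synthetic activator of the LXRs (liver X receptors), nuclear receptors for oxidised sterols. Both groups therefore held 1 culture of mouse 1 and 1 of mouse 2. The labels name no genetic change in either group. The labels give the age relative to day 0 of DSS, an agent that injures the colon, but name it in no other place. They do not say how long the crypts grew before the agent was added. The extraction text of the labels speaks of colon, whereas the tissue label names the small intestine. The comparison asks whether genes under PPARα control were higher at the time when Ppara itself was higher.

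PPARs are nuclear receptors that bind fatty acids and, paired with the retinoid X receptor, bind DNA at 2 copies of the hexamer AGGNCA set apart by 1 base. LXRs bind with the same partner at such copies 4 bases apart. In the oxidation of long-chain fatty acids, carnitine carries the acyl chain into the mitochondrion, acyl-CoA dehydrogenases open each round of shortening, and in the fasted liver much of the acetyl-CoA becomes ketone bodies. In the small intestine, PPARα is best known in the enterocyte, which meets dietary fat first.

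Promoter sequences show what the gene that rose and the best-known carnitine and pyruvate targets carry next to their start sites. They come from RefSeq on GRCm38.p6 and run from 250 bases before to 50 after the start that RefSeq gives, 5′ to 3′ on the gene's own strand. Capitals mark every match to AGGNCA on either strand. The windows are chr15:85735526-85735825 on the plus strand for Ppara, chr19:3323051-3323350 on the plus strand for Cpt1a and chr6:5496229-5496528 on the minus strand for Pdk4. In the GENCODE annotation used for the counts, Ppara begins at chr15:85734983 and Cpt1a at chr19:3322334. Their windows thus lie wholly inside the GENCODE genes, and sequence before those starts was not searched.
Ppara promoter: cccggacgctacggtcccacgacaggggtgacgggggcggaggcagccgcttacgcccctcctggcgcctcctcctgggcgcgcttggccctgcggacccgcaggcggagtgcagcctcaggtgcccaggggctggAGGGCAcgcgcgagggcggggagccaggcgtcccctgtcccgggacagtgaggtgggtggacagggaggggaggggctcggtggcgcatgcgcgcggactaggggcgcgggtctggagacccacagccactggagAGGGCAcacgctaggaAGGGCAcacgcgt
Cpt1a promoter: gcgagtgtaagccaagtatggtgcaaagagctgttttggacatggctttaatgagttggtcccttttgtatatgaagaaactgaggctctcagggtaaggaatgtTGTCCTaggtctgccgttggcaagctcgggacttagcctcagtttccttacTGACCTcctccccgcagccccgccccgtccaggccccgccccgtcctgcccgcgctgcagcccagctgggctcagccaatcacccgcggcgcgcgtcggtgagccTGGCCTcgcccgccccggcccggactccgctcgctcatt
Pdk4 promoter: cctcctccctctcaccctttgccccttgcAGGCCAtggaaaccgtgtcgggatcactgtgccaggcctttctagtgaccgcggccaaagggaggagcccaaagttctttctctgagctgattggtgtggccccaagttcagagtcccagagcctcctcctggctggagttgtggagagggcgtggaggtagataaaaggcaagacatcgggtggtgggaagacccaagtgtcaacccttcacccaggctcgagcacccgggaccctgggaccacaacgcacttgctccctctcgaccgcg

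Ppara and Cpt1a each held 3 single matches to AGGNCA in this window, and Pdk4 held 1. Of the 8 oxidation genes, 7 had an entry in the promoter table, and 6 of these 7 had at least 1 match, against 57.2% of all 32851 promoters of the same length. None of the 7 held 2 copies in the same direction with a 1-base spacer (0.381% of all promoters did) or with a 4-base spacer (0.253% of all promoters), and neither did the Ppara window. A match is a string of letters and not a bound site. The absence of a pair says only that no exact pair is in this window. Both strands were searched, but no more distant sequence. Pairs in which a copy departs from AGGNCA were not searched for, so imperfect repeats could be present in these windows. GC content of the 7 windows lay between 50.7 and 70.3%, and that of Ppara was 74.7%.

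The libraries held 16572359 to 19486547 estimated counts, and 18147 to 18394 genes had a count above 0. One library, GW3965 of mouse 1, differed from the rest in composition. Mitochondrial genome transcripts made up 14.01% of its counts in genes and 7.6 to 9.43% in the other 3 libraries. The labelled epithelium showed in its markers: 7 epithelial genes, keratins and cadherin among them, summed to 19363 CPM (counts scaled to the same library total) in the GW3965 library of mouse 1 and to 26318 to 27572 CPM in the others. In that library 12 immune markers summed to 227 CPM, against 89.3 to 111 CPM in the other 3, with none of the 12 at 0 in all libraries. Of 6 genes of liver, muscle and fat, tissues with much fatty acid metabolism, only Ttr had enough counts to be tested, with 15 to 25 in a library. Alb had at most 6 estimated counts in a library, and Myh4 and Plin1 were at 0 throughout. Without that library, GW3965 is represented by mouse 2 alone, and the median log2 fold change of the 8 oxidation genes was -0.11 in place of -0.04.

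Ppara rose with GW3965 in both mice. Its CPM, normalised by edgeR's trimmed mean of M-values, was 4.31 with DMSO and 16.0 with GW3965 in mouse 1, and 4.08 with DMSO and 20.4 with GW3965 in mouse 2. The lowest GW3965 library was thus well above the highest DMSO library. The group means were 4.2 ± 0.164 and 18.2 ± 3.1 CPM (SD, n = 2), a 4.34-fold difference. In edgeR's quasi-likelihood test the log2 fold change was 2.12 ± 0.24 (SE; 95% interval 1.57 to 2.66) with a Benjamini-Hochberg adjusted p of 0.0142. Ppara was 1 of 8 genes called among 13602, or 0.0588%. It was also called by DESeq2, by limma-voom and with the mouse as a block, and its log2 fold change over 12 alternative fits ran from 1.93 to 2.28. The authors' deposited log2 CPM were not fitted. They gave rises of 1.13 in mouse 1 and 2.16 in mouse 2, where the values computed here gave 1.89 and 2.31.

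The other receptors of the list did not pass the test. Ppard, the PPAR found in most tissues, gave 156.8 and 102.0 CPM under vehicle and agonist in mouse 1, and 143.4 and 132.7 CPM in mouse 2. Both GW3965 values lay under both DMSO values, with a log2 fold change of -0.35 ± 0.22 (SE). Pparg, the PPAR of fat cells and colon epithelium, gave 112.3 and 72.2 CPM in mouse 1 and 99.2 and 101.5 CPM in mouse 2, so its groups overlapped. The coactivator genes Ppargc1a and Ppargc1b had log2 fold changes of -0.41 ± 0.27 and 0.20 ± 0.27 (SE). Of the 7 receptors and coactivators, 1 rose (Ppara) and none fell.

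None of the 8 oxidation genes passed the test for a change with GW3965, and with so few genes called in all, this count is near the background and sets the 8 apart from no other genes. Their sizes of change and intervals carry the comparison. In edgeR 0 of 8 passed at an adjusted p under 0.05, against the background of 0.0588%, and 0 of 8 had an unadjusted p under 0.05, which 1.05% of all genes had. DESeq2 and limma-voom also called 0 of 8. With the mouse as a block, 0 of 8 were called, against 0.353% of all genes. Fitted log2 fold changes of the 8 lay between -0.16 and 0.10, the smallest unadjusted p was 0.546, and each adjusted p in edgeR's quasi-likelihood test was 0.99986. In none of the 8 did both GW3965 libraries lie on the same side of both DMSO libraries, whereas 9.28% of all genes had both higher and 9.18% had both lower.

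Entry into the mitochondrion comes first. Cpt1a, the outer-membrane carnitine palmitoyltransferase that sets the rate of the pathway (19:3322334-3385733, plus strand, GRCm38), had 255.6 CPM with DMSO and 170.0 CPM with GW3965 in mouse 1, and 224.0 and 259.4 CPM in mouse 2. The GW3965 libraries were thus the lowest and the highest of the 4. The means were 239.8 ± 22.3 and 214.7 ± 63.2 CPM (SD, n = 2), and the log2 fold change was -0.16 ± 0.26 (SE; 95% interval -0.74 to 0.42). Slc25a20, the inner-membrane carrier that swaps acylcarnitine for carnitine (9:108662088-108684641, plus strand), had 65.2 and 74.4 CPM in mouse 1 and 54.1 and 52.4 CPM in mouse 2. Here the mice differed more than the treatments, and the log2 fold change was 0.09 ± 0.22 (SE; 95% interval -0.40 to 0.58).

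The acyl-CoA dehydrogenases take over by chain length. Acadvl, which acts on very long chains at the inner membrane (11:70010183-70015411, minus strand), had 192.2 and 156.8 CPM under vehicle and agonist in mouse 1 and 165.7 and 169.2 CPM in mouse 2. Its DMSO library of mouse 1 was the highest of the 4, and the log2 fold change was -0.13 ± 0.22 (SE; 95% interval -0.62 to 0.35). Acadvl overlaps Dvl2 and Mir324 on the other strand, and the sources used here do not say whether the counting used strand. Acadl, the dehydrogenase of long chains in mice (1:66830839-66863277, minus strand), had 194.6 and 184.5 CPM in mouse 1 and 147.1 and 151.5 CPM in mouse 2. Both libraries of mouse 1 were the higher ones, and the log2 fold change was -0.02 ± 0.24 (SE; 95% interval -0.55 to 0.50). Acadl overlaps Gm15793 on its own strand and Gm27934 on the other. Acadm, the dehydrogenase of medium chains (3:153922357-153944632, minus strand), had 61.3 and 56.5 CPM in mouse 1 and 55.0 and 56.8 CPM in mouse 2. These 4 values were the closest together of all 8 genes on the log scale, and the log2 fold change was -0.04 ± 0.18 (SE; 95% interval -0.44 to 0.36).

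Ehhadh, the bifunctional enzyme of peroxisomal oxidation and a classical PPARα target in rodent liver (16:21761287-21787807, minus strand), had 29.1 and 23.7 CPM in mouse 1 and 28.9 and 32.2 CPM in mouse 2. As with Cpt1a, the GW3965 libraries were the lowest and the highest, and the log2 fold change was -0.05 ± 0.21 (SE; 95% interval -0.51 to 0.41). Ehhadh overlaps Gm24898 on the other strand.

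Pdk4 and Angptl4 are targets that PPARs raise in fasting, though neither is an enzyme of oxidation itself. Pdk4, the kinase that switches off pyruvate dehydrogenase and so spares glucose (6:5483351-5496309, minus strand), was the least abundant of the 8. It had 113 and 90 estimated counts under vehicle and agonist in mouse 1 and 58 and 77 in mouse 2, or 5.80, 5.48, 3.08 and 4.04 CPM in that order. The direction differed between the mice, and the log2 fold change of 0.10 ± 0.36 (SE) had the second widest interval of the 8, from -0.71 to 0.90. Angptl4, a secreted inhibitor of lipoprotein lipase (17:33773750-33781830, minus strand), had 34.6 and 32.6 CPM in mouse 1 and 15.1 and 13.2 CPM in mouse 2. It was the 1 gene of the 8 that was lower with GW3965 in both mice, by little in each, and the log2 fold change was -0.12 ± 0.43 (SE; 95% interval -1.09 to 0.84). Leaving out a DMSO or GW3965 library of mouse 1 moved this value to 0.60 or -0.92.

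**Figure D1:**
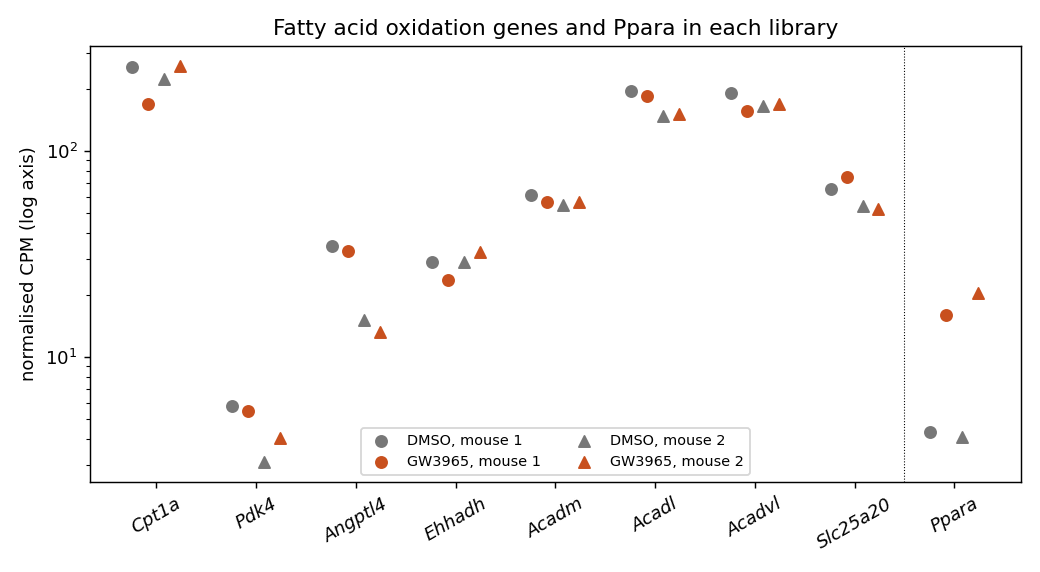
Normalised CPM (log axis) of the 8 oxidation genes and, right of the dotted line, Ppara, with 1 point per library: grey for DMSO, orange for GW3965, circles for mouse 1 and triangles for mouse 2. The orange points of Ppara, at 16.0 and 20.4 CPM, lie far above its grey points at 4.31 and 4.08 CPM, whereas orange and grey overlap in all 8 oxidation genes.

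The intervals bound how far the 8 genes could have followed Ppara. The highest upper bound among them was 0.90, that of Pdk4, a 1.87-fold rise. The lower bound of Ppara was 1.57, a 2.98-fold rise, so 8 of 8 upper bounds lay under it. This does not set the 8 apart. The same held for 7 of 7 epithelial, 10 of 10 enterocyte, 11 of 11 crypt and 9 of 11 tested immune markers. The lowest lower bound of the 8 was -1.09, that of Angptl4, or 0.469 of the DMSO level. These intervals come from the fit without the mouse, in which the difference of Angptl4 between the mice counts as spread. With the mouse as a block, the log2 fold change of Angptl4 was -0.14 ± 0.23 (SE; 95% interval -0.59 to 0.31, or 0.663- to 1.24-fold), and the highest upper bound of the 8 was 0.81 (Pdk4, 1.75-fold). The blocked intervals take their variance from the trend over genes. Changes within these intervals are not excluded with 2 libraries a group, and a larger change can also go uncalled. The peroxisomal gene Acaa1b, with few counts, was not called at a log2 fold change of 0.99. At 6 h only mRNA was measured, and neither PPARα protein nor its ligands were.

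**Figure D2:**
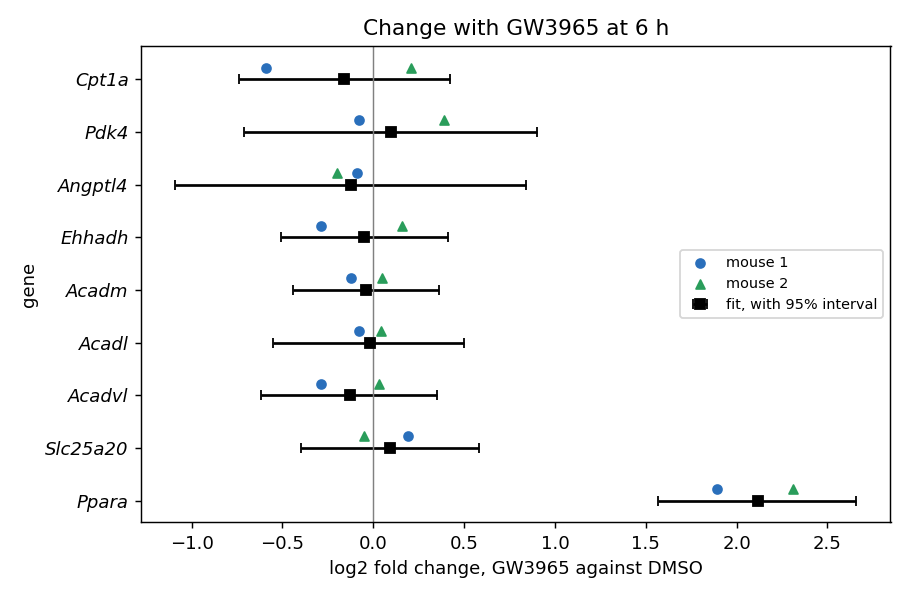
Log2 fold change of GW3965 over DMSO for Ppara and each oxidation gene, with the fitted value, its 95% interval and the difference in each mouse. The 8 intervals all include 0 and end at or under 0.90, and the interval of Ppara begins at 1.57.

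The mice moved in opposite directions in 7 of the 8 genes. In mouse 1, 7 genes were lower with GW3965 and 1 (Slc25a20) was higher, with a median log2 difference of -0.10. In mouse 2, 6 genes were higher and 2 (Angptl4 and Slc25a20) were lower, with a median of 0.04. No gene of the 8 was higher in both mice, as 16.3% of all genes were, and 1 was lower in both (Angptl4), as 17.2% of all genes were. Over all tested genes the median differences were -0.002 and -0.004, and 49.8% and 49.3% of genes were higher with GW3965 in mouse 1 and mouse 2. In the fit the median of the 8 was -0.04, beside 0.0003 over all genes. The larger differences in mouse 1, such as -0.59 for Cpt1a, came with the GW3965 library of that mouse. It had more mitochondrial and immune RNA and less of the 7 epithelial markers. Other epithelial lists had no lower sum there than with DMSO in mouse 1. The 10 enterocyte markers summed to 6017 against 6000 CPM, and the 11 crypt markers to 10099 against 9464 CPM. These sums rest on a few abundant genes: Defa24 alone gave 6396 and 5673 CPM of the crypt sums. In mouse 1, 4 of the 10 enterocyte and 3 of the 11 crypt markers were higher with GW3965, with median log2 differences of -0.17 and -0.23. All 7 epithelial markers were lower with GW3965 in mouse 1 (median -0.49), and all 11 tested immune markers were higher (median 1.02). In mouse 2, 5 of 7 epithelial markers were higher (median 0.02) and 1 of 11 immune markers was (median -0.39). The part of these shifts in the differences of the 8 genes was not tested. In such bulk samples, fewer cells of a type and less RNA per cell cannot be told apart.

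Between the mice, 1 of the 8 genes was called, against 0.684% of all genes. Angptl4 was 2.38-fold higher in mouse 1 than in mouse 2, with a log2 difference of mouse 2 minus mouse 1 of -1.25 ± 0.23 (SE) and an adjusted p of 3.57e-05 in edgeR with treatment as a covariate. The adjusted p of this difference was 0.0108 in DESeq2. Both libraries of mouse 1 were above both of mouse 2 in 4 of the 8 genes (Angptl4, Pdk4, Acadl and Slc25a20), as in 20.2% of all genes. The reverse order occurred in 0 of the 8 and in 21.0% of all genes. Pdk4 was 1.59-fold higher in mouse 1, with a log2 difference of -0.68 ± 0.34 (SE) that did not pass the adjusted test. This model has 1 residual degree of freedom and takes each gene's variance from the trend over genes, not from its own spread. Because each mouse gave 1 set of cultures, mouse and culture cannot be told apart.

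Among the other 70 genes listed for these pathways, 62 were tested and none but Ppara was called, where 0.0588% of all genes were. The rise of Ppara was the starting point of the comparison, so its call is no result about the list. The median log2 fold change of the 62 was -0.03, with 28 positive and 34 negative values, beside 0.0003 over all genes. For 60 of the 62 the upper bound of the interval lay under the lower bound of Ppara. The exceptions were Ppara itself and Acaa1b.

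In the carnitine shuttle, 4 of 5 listed genes were tested and none was called (median 0.03). Cpt2, which remakes acyl-CoA on the matrix side, had 73.0 CPM with GW3965 against 108.9 CPM with DMSO in mouse 1, but 97.5 against 84.6 CPM in mouse 2. Its log2 fold change was -0.18 ± 0.23 (SE). Cpt1b, the muscle form of Cpt1a, was at 0.26 ± 0.32 (SE), although 79.7% of its 31-base words also occur in the readthrough gene Gm44502, so its counts are uncertain. Crat, which makes acetylcarnitine, was at 0.06 ± 0.20 (SE).

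All 12 further genes of mitochondrial oxidation were tested and 0 were called, with log2 fold changes from -0.18 to 0.08 and a median of -0.06. Hadha, the alpha chain of the trifunctional protein, moved in opposite directions in the mice. It had 381.9 and 275.8 CPM under vehicle and agonist in mouse 1 and 288.6 and 326.0 CPM in mouse 2. Its partner Hadhb was at 0.01 ± 0.23 (SE) on the log2 scale. Hadh, which acts on shorter chains, was at -0.14 ± 0.20 (SE), and Etfdh, which passes the electrons of the dehydrogenases to ubiquinone, was at -0.18 ± 0.20 (SE).

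Of 13 peroxisomal genes 12 were tested and 0 were called (median 0.01). Acaa1b, a peroxisomal thiolase, had 17 and 41 estimated counts under vehicle and agonist in mouse 1 and 30 and 46 in mouse 2. Both GW3965 libraries were above both DMSO libraries. The log2 fold change was 0.99 ± 0.42 (SE; 95% interval 0.05 to 1.94), with an unadjusted p of 0.0418 and an adjusted p of 0.99986 in edgeR's quasi-likelihood test. With the mouse as a block it was 1.03 ± 0.47 (SE; 95% interval 0.10 to 1.96), also without a call. Of its 31-base words 40.0% also occur in Acaa1a, so reads of the copies could be divided wrongly. Hsd17b4, which acts in the middle steps of peroxisomal oxidation, and Abcd3, a transporter of the peroxisomal membrane, were at -0.13 ± 0.23 and -0.19 ± 0.24 (SE).

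None of the 6 genes of ketone body metabolism was called, and their median was -0.15. Bdh1, which interconverts the ketone bodies, had 85.1 CPM with vehicle and 54.6 CPM with agonist in mouse 1 and 73.6 and 80.3 CPM in mouse 2, and Slc16a1, which moves them across the membrane, was at -0.22 ± 0.22 (SE) on the log2 scale.

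The further PPAR targets had the highest median of the pathway lists, 0.15 over 12 tested of 15 listed, and 0 were called. In 5 of these 12 the GW3965 value was higher in both mice, as in 16.3% of all genes. In 1 it was lower in both, as in 17.2% of all genes. Of the 5, 2 are the thioesterase genes below, which share sequence, and the others are Vnn1, Mgll and Fabp1. Both GW3965 libraries lay above both DMSO libraries in 3 of the 12, as in 9.28% of all genes, and below them in 0, as in 9.18%. Mgll had only 23 to 29 estimated counts in a library. Acot1, a cytosolic thioesterase that frees fatty acids from CoA, had 7.14 and 11.1 CPM under vehicle and agonist in mouse 1 and 3.77 and 6.45 CPM in mouse 2. Its log2 fold change was 0.69 ± 0.37 (SE; 95% interval -0.13 to 1.50). Acot2, the mitochondrial form, had 11.7 and 13.8 CPM in mouse 1 and 6.42 and 11.8 CPM in mouse 2, at 0.50 ± 0.29 (SE) on the log2 scale. With the mouse as a block, the log2 fold change was 0.71 ± 0.29 (SE; 95% interval 0.13 to 1.28) for Acot1. For Acot2 it was 0.55 ± 0.26 (SE; 95% interval 0.04 to 1.06). Neither was called, and these intervals are not adjusted for the number of genes. Within each mouse both thioesterases were higher with GW3965. However, 38.9% and 37.0% of their 31-base words are shared with other genes, mostly with each other, so they do not stand for separate measurements. Ucp2, a mitochondrial carrier, was at -0.32 ± 0.25 (SE). Cyp4a10, Cyp4a14 and Fgf21, strong PPARα targets in liver, had too few counts to be tested.

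**Figure D3:**
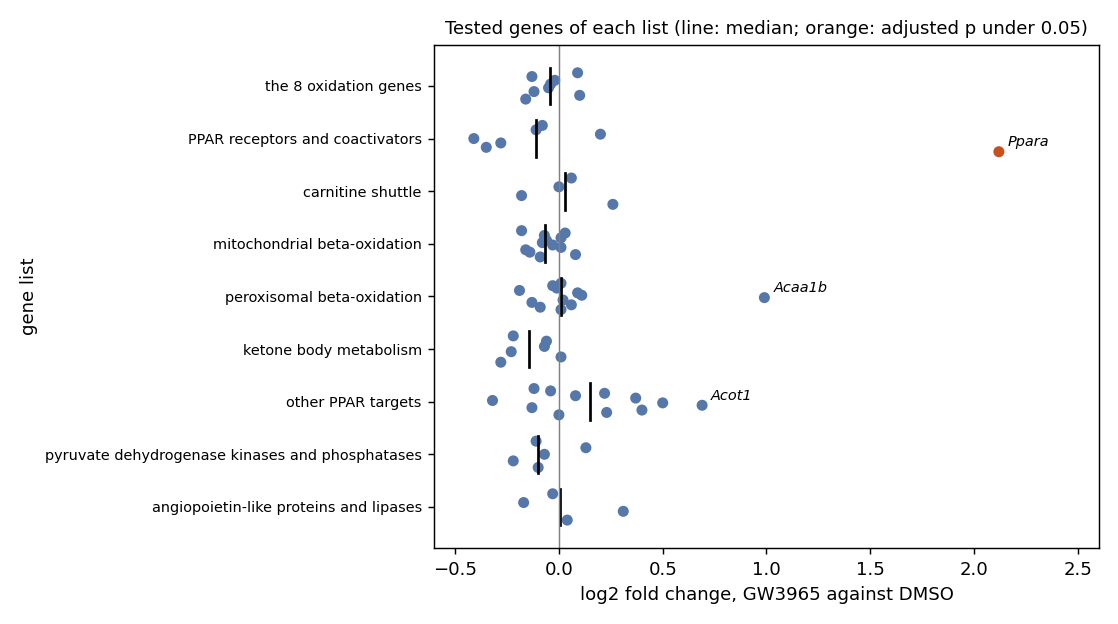
Fitted log2 fold changes of GW3965 over DMSO for the tested genes of the 8 oxidation genes and of each pathway list, 1 point per gene, with a black line at each median and orange for an adjusted p under 0.05. Apart from Ppara at 2.12, the points gather around 0, and Acaa1b at 0.99 and Acot1 at 0.69 are the highest of the rest.

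Around Pdk4 and Angptl4, the related genes also gave no call. The 5 other kinases and phosphatases of pyruvate dehydrogenase had a median of -0.10, with Pdk2 at -0.22 ± 0.27 and Pdp1, which reverses the kinases, at 0.13 ± 0.18 (SE). Of 7 angiopoietin-like proteins and lipases 4 were tested, with a median of 0.01. Lpl, the lipase that ANGPTL4 inhibits, was at 0.31 ± 0.43 and the endothelial lipase gene Lipg at -0.17 ± 0.28 (SE). Gpihbp1, which anchors the lipase to capillaries, had 0 counts in all 4 libraries.

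At the level of transcripts, 26 transcripts of the 8 genes were in the files, 17 were tested and 0 were called, as were 0 of all 32357 transcripts tested (0.0%). None of the 17 had an unadjusted p under 0.05. For Cpt1a and Ehhadh a single protein-coding transcript held all of the estimated counts in each library. In Angptl4 most counts went to Angptl4-202, which the annotation marks for nonsense-mediated decay. It held 89.3% and 80.4% of the gene's counts under vehicle and agonist in mouse 1 and 78.5% and 88.5% in mouse 2. The protein-coding Angptl4-201 held 7.14%, 16.2%, 11.8% and 11.5% in that order. The junctions of exons 2 and 3 are shown because they mark where the transcripts differ inside their exons, with the 4 bases found only in Angptl4-201 in capitals.
Angptl4-201: tcttcagagccagATAGacctcttggcccc
Angptl4-202: tcttcagagccagacctcttggcccc

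In GENCODE M21 on GRCm38, exon 3 of Angptl4-201 spans 17:33780530-33780647 and that of Angptl4-202 spans 17:33780530-33780643, on the minus strand. The ends differ as well. Angptl4-201 reaches 287 bases further at the 5′ end and 1158 bases further at the 3′ end. Angptl4-201 is 3308 bases long in that release but 3053 in the deposited files, so the model that the counts rest on differs in part from the one described here. Angptl4-202 has 1859 bases in both. The share of each transcript is kallisto's estimate, which rests on the reads that fall where the transcripts differ. The shares of the Acadvl transcripts varied more between libraries: Acadvl-201 held 13.8% and 18.2% of counts under vehicle and agonist in mouse 1, but 0.05% and 5.26% in mouse 2. In Ppara the largest share belonged to the protein-coding Ppara-202, with 51.4 to 60.1% of counts, and its log2 fold change was 2.31 ± 0.35 (SE) with an adjusted p of 0.784 in edgeR over all transcripts.

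**Figure D4:**
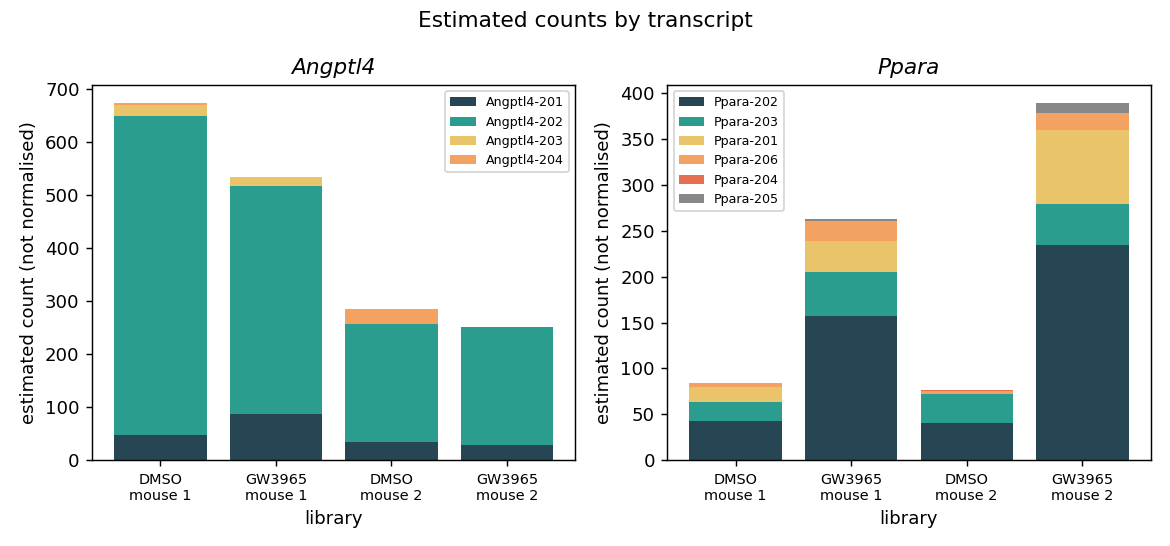
Estimated counts, not normalised, of each transcript of Angptl4 (left) and Ppara (right), stacked in 1 bar per library. Angptl4-202 makes up most of each Angptl4 bar, at 78.5 to 89.3%, and Ppara-202 is the largest piece of each Ppara bar, at 51.4 to 60.1%.

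Levels can be compared between genes only per length, as TPM, in which counts are divided by transcript length and scaled to 1 total. With DMSO, Acadvl was the highest of the 8 at 111.3 ± 20.1 TPM, and Acadl followed at 104.2 ± 24.5 TPM (SD, n = 2), with overlapping ranges. Cpt1a was next at 61.5 ± 8.15 TPM. Slc25a20 at 38.8 ± 6.98 and Acadm at 37.3 ± 5.15 TPM overlapped as well. Angptl4 stood at 18.1 ± 9.11, Ehhadh at 10.8 ± 0.473 and Pdk4 at 1.55 ± 0.852 TPM. Other neighbours in this order did not overlap in their 2 DMSO libraries. Ppara had 2.8 ± 0.0366 TPM with DMSO, above both DMSO libraries of Pdk4 (2.2 and 0.9 TPM).

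The pattern over the 4 libraries most like each gene was sought among the 69 other genes of the lists tested, as the root mean square difference of centred log2 CPM. Acadm lay nearest to Acaa2, the last enzyme of mitochondrial oxidation, at 0.00376, and Cpt1a nearest to Hsd17b4 at 0.0127. Acadl was nearest to Hadhb (0.0323), Ehhadh to Acsl1 (0.0417), Slc25a20 to Pex11a (0.048) and Acadvl to Acaa2 (0.0625). Pdk4 had a less close match, with Ppargc1b at 0.115. The difference to Ppara ran from 1.05 to 1.32 for the 8. The rise of Ppara alone gives a value of about this size for any gene that changes little. Each nearest gene was the closest of 69, so a small difference to it comes in part from the choice. With 4 libraries, these values describe the data and were not tested.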

How the data were processed

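Poly-A RNA of 4 organoid libraries was measured, 2 with DMSO and 2 with GW3965, grouped by the labels. The submitters' processing notes name CASAVA 1.7, FastQC and kallisto (no versions) and the build mm10. For each transcript the authors deposited estimated counts, which are not normalised, and TPM, which are relative to the whole library, per the file headers. Also deposited were the same counts rounded to whole numbers (largest gap 0.5) and log2 CPM of 8524 gene symbols. The sources used here give neither the scaling of the latter, nor the annotation release, nor the use of strand.

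Of 88198 transcripts, 86119 (97.6%) matched GENCODE M21, and the 2079 others, with 0.685 to 0.854% of a library's counts, stayed out of library sizes and tests. The estimated counts of a gene's transcripts were added up and rounded, giving 30284 genes. kallisto divides reads between similar transcripts, so genes with near-identical copies are uncertain, and the share of each gene's 31-base words found in other genes was computed. The test was glmQLFTest of edgeR 4.0.16 after filterByExpr, TMM scaling and glmQLFit, run in R 4.3.3 with 2 residual and 7.78 prior degrees of freedom, adjusted by Benjamini-Hochberg over 13602 genes at a threshold of 0.05. Standard errors and 95% intervals were derived from the F statistic. Differences within a mouse are of log2 CPM with a prior count of 0.5. The tests were also run on simulated counts with the same dispersion for every gene and no difference between mice. Their outcome is not reported here and does not bear on how the tests behave with these data. Depth was 16572359 to 19486547 counts, and reads carry no molecular identifiers, so depth covers counting error only.

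Same-numbered libraries come from 1 mouse per the labels. A second model therefore held the mouse as a block, with 1 residual degree of freedom and an infinite prior. Across genes, deviations from the group means correlated at 0.06 between the libraries of a mouse. Every pair of libraries differed beyond sampling noise, with a chi-square of 9.9 to 72.0 per degree of freedom. All p-values rest on 2 mice, with 1 culture per mouse and treatment. Alternatives were DESeq2 1.42.0, limma-voom (limma 3.58.1), other scalings, no filter, no mitochondrial genes, the rounded table, TPM, the authors' log2 CPM and leaving out each library.

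The 8 genes, the lists and the tests were chosen with earlier results of these data known. From each list the called genes and up to 3 others with the smallest p were named, and the gene with the pattern most like each of the 8; some of these are not reported here. The marker genes, Acaa1a, Gm44502, Vnn1, Mgll, Fabp1 and the genes without a test were named after their values were seen.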

Additional observations from a re-analysis of the deposited data

How the results depend on the processing

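None of the 8 oxidation genes was called under any of the 12 alternative fits, 1 of the listed pathway genes (Ppara) was called in each, and Angptl4 was the 1 gene of the 8 called between the mice in each of 4 alternatives. Over all genes, 8 were called as reported, 20 with DESeq2, 20 with limma-voom, 13 with library totals alone, 14 without the filter on low counts and 48 with the mouse as a replicate block. Leaving out 1 library gave 38 (DMSO of mouse 1 left out) to 84 (GW3965 of mouse 2 left out), where the lone library of a group is assumed to vary like the others. The replicate block changed no call among the 8 genes or their transcripts and gave a median log2 fold change of the 8 of -0.052 in place of -0.045. That median was 0.119 when DMSO of mouse 1 was left out and -0.231 when DMSO of mouse 2 was, so its sign rests on single libraries. Of 96 values of the 8 genes under alternatives, 11 changed sign, within -0.92 to 0.63, and no call changed among 456 values of 38 named genes. Pdk4 and Acaa1b rest on few counts. With 2 cultures a group, the intervals of the 8 genes reach from 0.469- to 1.87-fold without the block.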

Other observations

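The authors' deposited table of log2 CPM lists 6 of the 8 oxidation genes, without Pdk4 and Angptl4. Over the 8463 gene symbols that it shares with the values computed here, the standard deviation across genes of the difference between the mice was 0.0331 in the authors' deposited table and 0.275 in the CPM computed from the deposited counts. For the difference between GW3965 and DMSO the figures were 0.14 and 0.183. The difference of mouse 2 minus mouse 1 was -0.04 for Slc25a20 in the authors' deposited table and -0.39 here, and for Acadl it was -0.04 and -0.34. The scaling of that table is not stated in the sources used here.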
